A study of Mus musculus with 6 samples.

Results

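The V1 sector is the cytosolic part of the vacuolar H+-ATPase (V-ATPase), and the genes of its 8 subunits in WT and lincRNA-EPS knockout (KO) osteoclast precursors are described here. The members were the 8 rows of the deposited table named Atp6v1a, Atp6v1b2, Atp6v1c1, Atp6v1d, Atp6v1e1, Atp6v1f, Atp6v1g1 and Atp6v1h, 1 gene for each of the subunits A to H, out of 57180 genes. Bone marrow-derived macrophages (BMDMs) came from C57BL/6 WT mice or from mice without the long noncoding RNA lincRNA-EPS. Both genotypes spent 24 h in M-CSF (40 ng/mL), a macrophage growth factor, and then 48 h with RANKL, the cytokine that starts osteoclast formation, also at 40 ng/mL. There were 3 libraries per genotype, described by the submitters as biologically independent, and both groups received RANKL, so no unprimed level was available here. The comparison asked which transcripts differed between KO and WT precursors.

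The V-ATPase is a rotary proton pump. Its V1 sector binds and hydrolyses ATP outside the membrane, and the turning of a central stalk drives protons through the membrane-bound V0 sector. In every cell the pump acidifies endosomes and lysosomes, and in a mature osteoclast it is moved to the ruffled border, where it acidifies the space in which bone mineral dissolves. The V1 sector can detach from and rejoin V0, which is one way in which pump activity is known to be set.

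Estimated counts summed to between 17757351 and 19998611 per library, so the floor of 3 counts corresponded to 0.150 to 0.169 CPM (counts scaled to equal library size, per 1000000). Ttc39aos1, the gene symbol of lincRNA-EPS, had 20, 37 and 41 counts in the WT libraries and 0 in each KO library, at least 10.8-fold lower when each KO library is set at 3 counts (edgeR adjusted p = 0.120). Markers of the labelled cell type were present in both genotypes, with Lyz2, a macrophage lysozyme, at a mean of 13303 CPM in WT and 12882 CPM in KO, and Ctsk, the collagen-degrading cathepsin of osteoclasts, at 942 and 1606 CPM. Over the tested genes, fold changes (log2, KO against WT) went with the GC content of the transcript (r = -0.51 over 13176 genes, which are not independent replicates). Fold changes are therefore also given after each library's trend with GC content was taken off, and are then called GC-corrected.

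All 8 members passed the filter on low counts, and the lowest CPM of any of them in any library was 110. For each of the 8, every KO library was above every WT library, against 16.9% of all 13428 tested genes with the same order and 18.8% with the opposite one. At an unadjusted p under 0.05 in edgeR's quasi-likelihood test, 6 of 8 were higher in KO and none was lower, where 13.0% of all tested genes were higher. With the limits of adjusted p under 0.01 and a fold change above 1.3, edgeR called 0 of 8, and it called 0.00745% of all genes. DESeq2, an alternative count model, called 1 of 8 with the same limits, Atp6v1d, and called 0.521% of the genes to which it gave an adjusted p as higher. Combined with the GC correction it again called Atp6v1d alone, against 1.71% of genes. At a DESeq2 adjusted p under 0.05, 4 of 8 were higher (Atp6v1d, Atp6v1h, Atp6v1g1 and Atp6v1b2) against 3.55% of genes, and 6 of 8 with the GC correction (those 4, Atp6v1e1 and Atp6v1f) against 5.01%. The median log2 fold change of the 8 was 0.34, and over all tested genes it was 0.0091. After GC correction the medians were 0.30 and -0.0075, and 7 of 8 members had an unadjusted p under 0.05, against 12.3% of all genes in that direction.

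**Figure D1:**
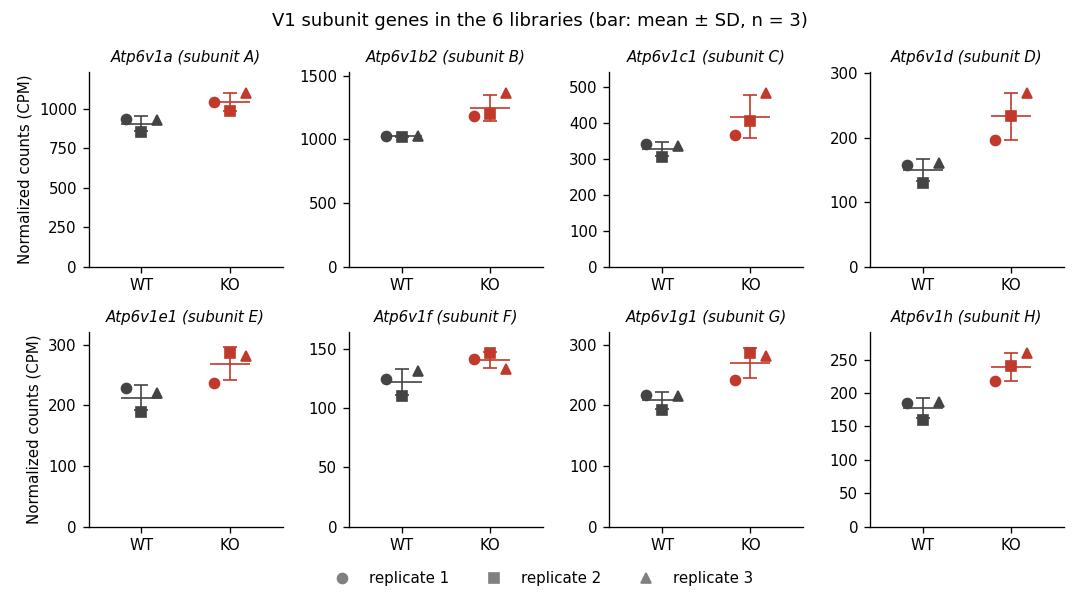
Normalized counts (CPM, vertical axis from 0) of each V1 member in the 3 WT (grey) and 3 KO (red) libraries, with marker shape for the replicate number and bars for mean ± SD, n = 3. In each of the 8 panels the lowest KO library is above the highest WT library, with the smallest gap in Atp6v1f (131 against 133 CPM) and a gap from 161 to 197 CPM in Atp6v1d.

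Subunits A and B form the hexameric head in which ATP is bound, with the catalytic sites on A. Atp6v1a was at 935, 852 and 927 CPM in the WT libraries and at 1041, 983 and 1097 CPM in the KO libraries. Its log2 fold change was 0.20 (SE 0.097, edgeR adjusted p = 0.213) and 0.04 after GC correction (adjusted p = 0.711), the lowest GC-corrected value among the 8. Atp6v1b2, the B subunit found in most tissues and in osteoclasts, was at 1029, 1020 and 1025 CPM in WT and at 1179, 1196 and 1361 CPM in KO. The WT libraries of Atp6v1b2 were almost level (SD 4.25 CPM), and KO replicate 3 was set apart above the others. Its log2 fold change of 0.28 (SE 0.099, edgeR adjusted p = 0.153) was 0.29 after GC correction (adjusted p = 0.0792). The GC content of the Atp6v1b2 transcript, 50.4%, was near the middle of the tested genes (percentile 54.1), while that of Atp6v1a was 44.6% (percentile 23.9).

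Subunits D and F form the central stalk that turns inside the head. Atp6v1d was at 159, 130 and 161 CPM in the WT libraries and at 197, 234 and 269 CPM in the KO libraries. All KO values were above the WT values, and WT replicate 2 was the lowest of the 6. The log2 fold change of Atp6v1d, 0.64 (SE 0.14, a fold of 1.56), was the highest of the members and ranked 102 of 13428 by p, with an edgeR adjusted p of 0.147. After GC correction it was 0.42 (a fold of 1.34, adjusted p = 0.0372), still the highest of the 8. DESeq2 gave Atp6v1d an adjusted p of 0.00263, and 0.000205 with the GC correction. The Atp6v1d transcript had the lowest GC content among the members, 42.5% (percentile 14.5), and the largest shift under the correction.

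Atp6v1f, the partner of Atp6v1d in the central stalk, differed less. Its levels were 125, 110 and 131 CPM in WT and 142, 147 and 133 CPM in KO, and KO replicate 3 was close to the highest WT library. The log2 fold change was 0.20 (SE 0.099, edgeR adjusted p = 0.217), and 0.13 without WT replicate 2. Atp6v1f has the most GC-rich transcript of the members, 53.4% (percentile 68.8), and its GC-corrected log2 fold change was larger, 0.31 (unadjusted p = 0.00732, adjusted p = 0.0892).

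Subunits E and G pair into the peripheral stalks that hold the head still against the turning rotor. Atp6v1e1 was at 228, 189 and 221 CPM in WT and at 238, 287 and 282 CPM in KO. For Atp6v1g1 the WT libraries had 218, 192 and 216 CPM and the KO libraries 241, 286 and 282 CPM. In both genes WT replicate 2 was the lowest WT library and KO replicate 1 the lowest KO library. Their log2 fold changes were 0.34 (SE 0.11, edgeR adjusted p = 0.150) for Atp6v1e1 and 0.37 (SE 0.10, adjusted p = 0.147) for Atp6v1g1. The GC-corrected values were 0.31 (adjusted p = 0.0956) and 0.31 (adjusted p = 0.0700).

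Subunits C and H sit at the interface with V0. C leaves the complex when V1 detaches, and H keeps detached V1 from hydrolysing ATP. Atp6v1c1 was at 342, 307 and 335 CPM in WT and at 367, 404 and 483 CPM in KO, with KO replicate 3 far above the other 2. Its log2 fold change was 0.35 (SE 0.12, edgeR adjusted p = 0.149) and 0.20 after GC correction (adjusted p = 0.107). Atp6v1h was at 185, 160 and 187 CPM in WT and at 218, 240 and 260 CPM in KO. The log2 fold change of Atp6v1h, 0.43 (SE 0.11, edgeR adjusted p = 0.147), was second to that of Atp6v1d, and it was 0.24 after GC correction (adjusted p = 0.0751).

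**Figure D2:**
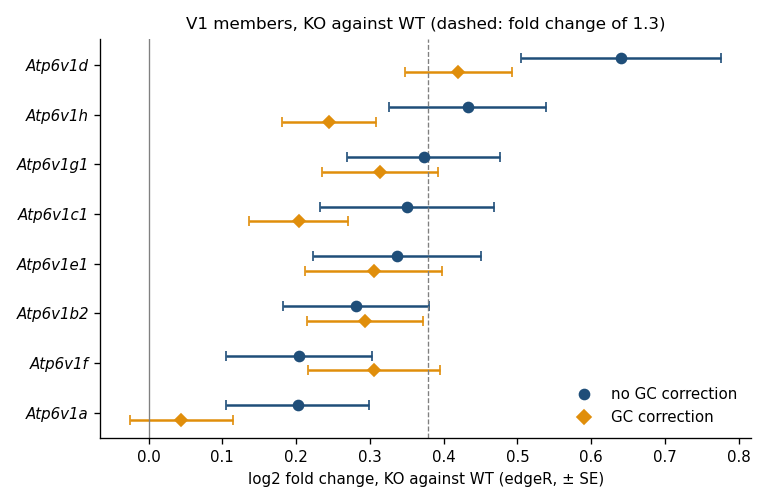
Log2 fold change of each V1 member in KO against WT (horizontal axis, edgeR estimate ± SE), without (blue circles) and with (orange diamonds) the GC correction. All 16 estimates are above 0, and the correction brings Atp6v1a from 0.20 to 0.04 and Atp6v1d from 0.64 to 0.42 but moves Atp6v1f from 0.20 to 0.31.

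With the correction, 7 of the 8 GC-corrected log2 fold changes lay between 0.20 and 0.42, and Atp6v1a stood below them. The transcripts with the lowest GC content, those of Atp6v1d, Atp6v1h, Atp6v1a and Atp6v1c1, had lower values after the correction, as did those of Atp6v1g1 and Atp6v1e1 by less. The mean GC trend of the 8 members was -0.020, -0.081 and -0.025 on the log2 scale in the WT libraries and -0.0057, 0.0078 and 0.12 in the KO libraries. It was thus lowest in WT replicate 2 and highest in KO replicate 3, the libraries that also held the lowest and the highest mean level of the members. WT replicate 2 had the lowest WT value for 8 of 8 members. KO replicate 3 had the highest KO value for 5 of 8, and KO replicate 1 the lowest for 6 of 8. Leaving out each library in turn, the GC-corrected estimate for Atp6v1a ranged from 0.0014 to 0.080 and that for Atp6v1d from 0.37 to 0.48.

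**Figure D3:**
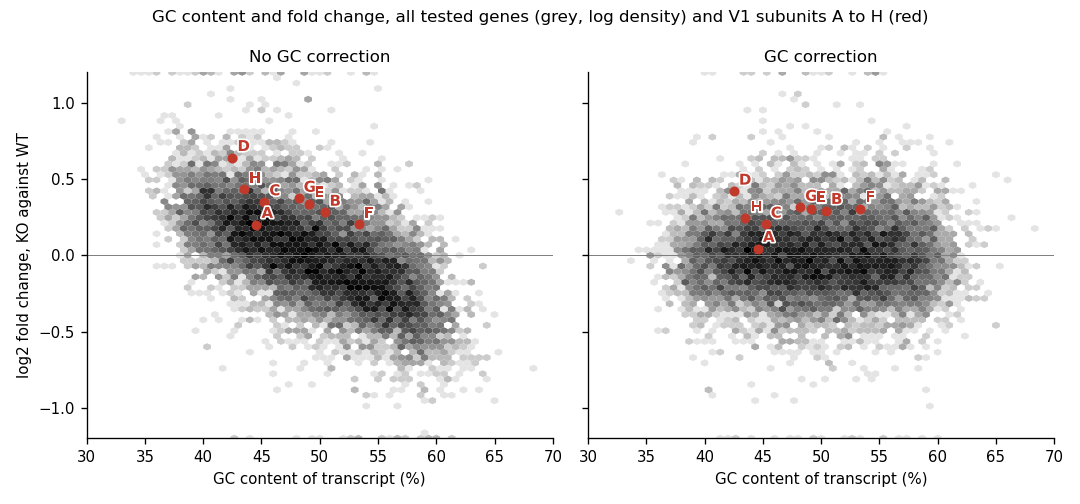
Log2 fold change in KO against WT (vertical axis, values beyond ±1.2 drawn at the edge) against the GC content of the transcript in percent (horizontal axis) for 13176 tested genes (grey, log density) and the V1 members (red, subunits A to H), without (left) and with (right) the GC correction. The downward slope over all genes (r = -0.51) is gone on the right (r = -0.015), where 7 members lie between 0.20 and 0.42 and subunit A is at 0.04.

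Added together, the 8 transcripts took 3220, 2960 and 3202 CPM in the WT libraries and 3623, 3777 and 4168 CPM in the KO libraries, a ratio of the means of 1.23. The share of Atp6v1d was 4.92%, 4.39% and 5.01% in WT and 5.44%, 6.19% and 6.46% in KO, and that of Atp6v1h was 5.76%, 5.39% and 5.83% in WT and 6.01%, 6.35% and 6.24% in KO, without overlap for either gene. Atp6v1a had 29.04%, 28.79% and 28.95% of the WT sum and 28.75%, 26.03% and 26.33% of the KO sum, so that the highest KO share was just under the lowest WT share. For the other 5 members the shares of the genotypes overlapped. With the GC trend taken off, the shares of Atp6v1h overlapped too, at 5.80%, 5.88% and 5.94% in WT and 6.02%, 6.31% and 5.59% in KO. Those of Atp6v1d (4.97%, 4.91% and 5.12% in WT, 5.46%, 6.13% and 5.63% in KO) and of Atp6v1a (29.26%, 30.57% and 29.35% in WT, 28.80%, 25.88% and 24.32% in KO) still did not. The log2 ratio of Atp6v1d to Atp6v1a, the pair at the ends of the GC-corrected range and picked for that, was -2.56, -2.71 and -2.53 in WT and -2.40, -2.07 and -2.03 in KO. With the GC trend taken off, the ratios were -2.56, -2.64 and -2.52 in WT and -2.40, -2.08 and -2.11 in KO, still without overlap.

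Levels of different genes were compared per kilobase of the longest annotated coding transcript. On that scale Atp6v1b2 was the most abundant member, at 363 ± 1.51 CPM per kb in WT and 441 ± 35.5 in KO (SD, n = 3), and was above the next gene in all 6 libraries. Atp6v1a followed with 214 ± 10.8 in WT and 246 ± 13.5 in KO and was above Atp6v1g1 (184 ± 12.6 and 238 ± 21.9) in 5 of 6 libraries. Next came Atp6v1e1 (162 ± 15.8 in WT), Atp6v1c1 (158 ± 9.05) and Atp6v1f (151 ± 13.4). From Atp6v1g1 to Atp6v1f the WT ranges of neighbours overlapped, although Atp6v1g1 was above Atp6v1e1 in 6 of 6 libraries, Atp6v1e1 above Atp6v1c1 in 4 of 6 and Atp6v1c1 above Atp6v1f in 5 of 6. Apart below them were Atp6v1h at 86.5 ± 7.46 and Atp6v1d at 40.8 ± 4.65 in WT, and Atp6v1d was the lowest in both genotypes (63.6 ± 9.84 in KO). Over all 6 libraries the per-length level of Atp6v1b2 was 7.69 times that of Atp6v1d. The order rests on 1 transcript length per gene, and shorter isoforms in these cells would move it.

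**Figure D4:**
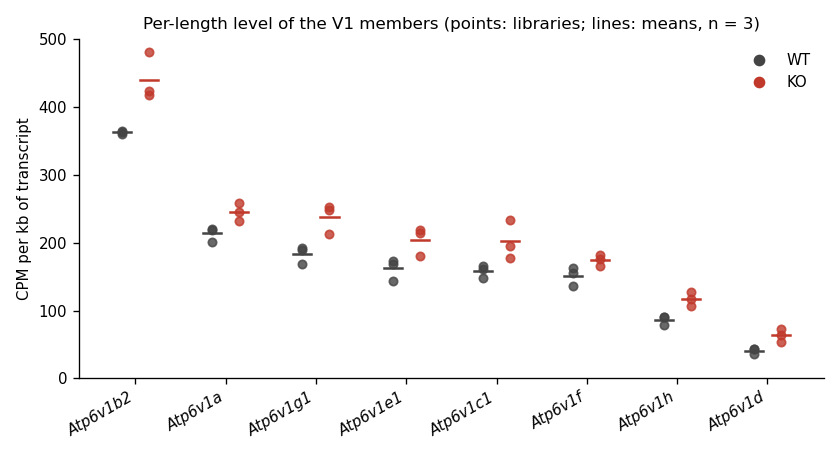
Per-length level (CPM per kb of transcript, vertical axis from 0) of the 8 V1 members, ordered by their mean over the 6 libraries, in WT (grey) and KO (red). Points are libraries and lines are means of 3; Atp6v1b2 is at the top (363 in WT, 441 in KO) and Atp6v1d at the bottom (40.8 in WT, 63.6 in KO).

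Several V1 subunits have a second gene with a narrower tissue range. Atp6v1b1, known from the kidney and inner ear, Atp6v1c2, Atp6v1e2, known from the testis, and Atp6v1g3, known from the kidney, had 0 counts in all 6 libraries. Against the counts of the expressed gene, the 0 allows a share of up to 0.00233% for the second B gene, 0.00708% for the second C gene and 0.0110% for the second E gene, for counting error only. Atp6v1g2, known from neurons, had 18, 44 and 28 counts in WT and 25, 22 and 40 in KO (log2 fold change -0.033, SE 0.37, edgeR adjusted p = 0.960, and 0.067 after GC correction). Per length, Atp6v1g1 held 99.4% ± 0.315 of the G transcripts in WT and 99.6% ± 0.105 in KO (SD, n = 3, exact permutation test, two-sided, p = 0.7, where 3 against 3 cannot go below 0.1).

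The V0 sector, which carries the protons, was less uniform. Of 13 V0 and accessory genes 11 were tested, and their median log2 fold change was 0.07, or 0.16 after GC correction. At an unadjusted p under 0.05, 4 of the 11 were higher and 1 lower. Of all tested genes, 13.0% were higher and 13.2% lower at that p, and 12.3% and 14.3% after GC correction. Atp6v0d2, the d subunit that osteoclasts induce and need for cell fusion, was at 209 CPM in WT and 384 CPM in KO (log2 fold change 0.88, edgeR adjusted p = 0.136, and 0.62 with an adjusted p of 0.00915 after GC correction). Its widely expressed counterpart Atp6v0d1 was at 255 and 243 CPM. The others at that p were Atp6ap2, an accessory subunit (0.48, and 0.19 after GC correction), Atp6v0e (0.35 and 0.22) and Rnasek (0.32 and 0.54), and on the lower side Atp6v0a1, an a subunit (-0.48 and -0.36). After GC correction Atp6v0e was no longer at that p (unadjusted p = 0.150) and Atp6v0b, a proteolipid subunit of the V0 ring, was (0.36, unadjusted p = 0.00216, adjusted p = 0.0652), so that again 4 were higher and 1 lower. Tcirg1, the a subunit of the osteoclast ruffled border, had a log2 fold change of -0.16 (SE 0.16) and 0.13 after GC correction, and Atp6v0a4 had 0 counts throughout. The summed V0 CPM overlapped between the genotypes, at 5279, 5406 and 5268 in WT and 5743, 5858 and 5073 in KO. The mean log2 level of the V1 members minus that of the tested V0 genes was -0.033, -0.15 and -0.024 in WT and 0.034, 0.11 and 0.33 in KO, and with the GC trend taken off -0.0028, -0.020 and 0.012 in WT and 0.040, 0.091 and 0.14 in KO. These differences did not overlap, and the mean gap between genotypes was 0.23 without and 0.095 with the GC trend taken off.

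Genes that build the pump or bring V1 and V0 together lay on both sides of 0. Of 13 such genes 11 were tested, and the median log2 fold change was -0.043. At an unadjusted p under 0.05, where 13.0% of all tested genes were higher (12.3% after GC correction), 2 were higher and none lower. Those 2 were Vma21 (0.58, adjusted p = 0.177) and Tmem199 (0.32, adjusted p = 0.172), both needed for V0 assembly in the endoplasmic reticulum. Wdr7, a partner of the RAVE-like Dmxl1 and Dmxl2 proteins, had the lowest value (-0.19). After GC correction Vma21 was at 0.17 (unadjusted p = 0.178) and Tmem199 at 0.29 (unadjusted p = 0.0260). The 2 then higher at that p were Tmem199 and Ccdc115 (0.17, unadjusted p = 0.0443), and 5 of 11 were lower, where 14.3% of all tested genes were lower after GC correction and 13.2% without it. The 5 were Dmxl1 (-0.34), Dmxl2 (-0.31), Wdr7 (-0.24), Ncoa7 (-0.38) and Tbc1d24 (-0.25). The partners of acid secretion were mixed. Of 8, Snx10, a sorting nexin needed for the ruffled border, was higher at that p (log2 fold change 0.69, and 0.42 after GC correction), as were Car2, the carbonic anhydrase that supplies protons (0.51 and 0.48), and Acp5, the TRAP phosphatase (0.38 and 0.57). Plekhm1, a lysosome trafficking adaptor, was lower (-0.49 and -0.31). The chloride transporter Clcn7 was at 420 CPM in WT and 397 CPM in KO.

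**Figure D5:**
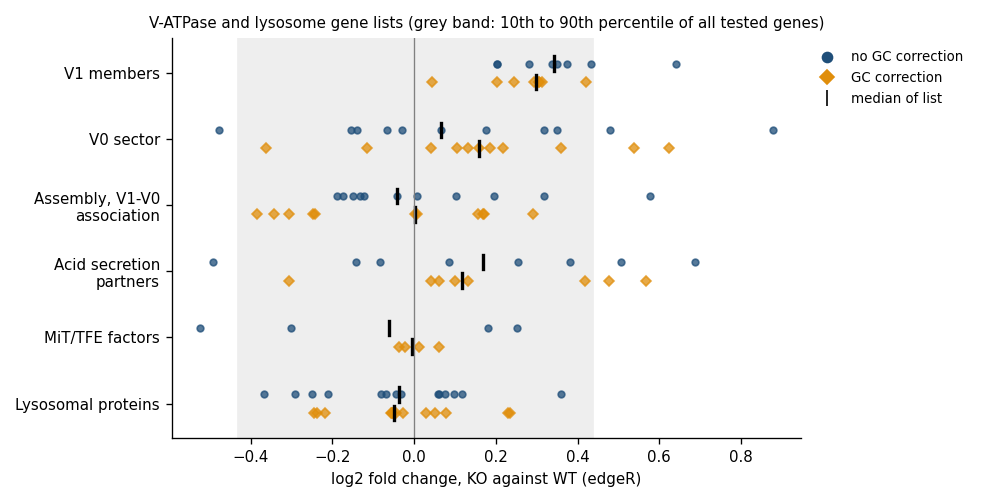
Log2 fold change in KO against WT (horizontal axis, edgeR) of the tested genes of 6 lists, without (blue circles) and with (orange diamonds) the GC correction, with black ticks for list medians and a grey band for the 10th to 90th percentile of all tested genes. The V1 members are all above 0 with medians of 0.34 and 0.30, while the other lists hold genes on both sides.

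Lysosomal proteins outside the pump also lay on both sides of 0. The median log2 fold change of the 14 was -0.038. At an unadjusted p under 0.05, where 13.2% of all tested genes were lower, Psap (log2 fold change -0.37) and Neu1 (-0.29) were lower. After GC correction these were -0.22 (unadjusted p = 0.0525) and -0.054 (unadjusted p = 0.433). Their summed level was 31340 to 34129 CPM in WT and 27416 to 28737 CPM in KO, most of it from Psap, Ctsb and Ctsd. The MiT/TFE transcription factors are known to switch on V-ATPase and lysosomal genes through the E-box CACGTG. Among them Tfeb (-0.52) and Tfe3 (-0.30) were lower and Mitf (0.25) was higher at an unadjusted p under 0.05. After GC correction these values were -0.023, -0.037 and 0.061, and none of the 4 genes of the family had an unadjusted p under 0.05.

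RefSeq promoter windows of GRCm38.p6, reaching from 250 bases before to 50 bases after a gene's start, were at hand for 4 of the 8 members, Atp6v1a, Atp6v1d, Atp6v1e1 and Atp6v1f. The longest stretch of the window free of annotated exons is shown for Atp6v1a and Atp6v1d, the members with the lowest and the highest GC-corrected fold change, each read on the minus strand. Starts are those of the RefSeq windows. That of Atp6v1a lies inside the span of the gene in GENCODE, which begins further upstream, so its stretch lies within that span but in no annotated exon. They are chr16:44139306-44139461 for Atp6v1a, with the E-box CACGTG in capitals, and chr12:78861639-78861818 for Atp6v1d, with the GC box GGGCGG in capitals.
Atp6v1a: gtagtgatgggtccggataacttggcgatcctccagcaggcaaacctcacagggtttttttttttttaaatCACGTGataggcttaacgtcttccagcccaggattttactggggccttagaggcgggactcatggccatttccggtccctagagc
Atp6v1d: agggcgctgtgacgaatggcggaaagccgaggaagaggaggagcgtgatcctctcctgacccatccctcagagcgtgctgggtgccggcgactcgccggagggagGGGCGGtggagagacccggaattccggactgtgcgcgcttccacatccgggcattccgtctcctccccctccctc
The E-box of Atp6v1a begins 131 bases upstream of the RefSeq start and lies within the 8 bases TCACGTGA. Searched on both strands, CACGTG was found in 1 of the 4 V1 windows, and in 7.15% of all 32851 windows. The longer TCACGTGA, which contains it, was in 0.97% of all windows. GGGCGG was found in 3 of 4, those of Atp6v1d, Atp6v1e1 and Atp6v1f, against 35.7% of all windows. Of 10 V0 genes with a window, 3 held CACGTG (Atp6v0b, Atp6v0d1 and Atp6v0e).

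The Atp6v1d stretch is also the gap to its neighbour. Eif2s1, a translation initiation factor, starts in the other direction 180 bases from Atp6v1d. Eif2s1 had a log2 fold change of 0.43 (SE 0.15, edgeR adjusted p = 0.156), and 0.15 after GC correction. In GRCm38 the 8 members lie on 7 chromosomes, with Atp6v1e1 (120794305 to 120822793) and Atp6v1f (29467718 to 29470512) both on chromosome 6 but far from each other. Atp6v1d spans chromosome 12 from 78840725 to 78861638 and has 9 exons, and Atp6v1a spans chromosome 16 from 44085402 to 44139705 and has 15. Genes on the opposite strand overlap Atp6v1b2 (Slc18a1), Atp6v1e1 (Slc25a18) and Atp6v1h (Rgs20), and whether counting used strand was not given in the sources used here. The counts of Slc18a1 were 310 to 389 in WT and 448 to 549 in KO, beside 18637 to 26727 for Atp6v1b2, and those of Slc25a18 and Rgs20 were at most 8 in any library.

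The 5 genes outside the V-ATPase whose centred log2 CPM lay nearest to the mean of the members over the 6 libraries, among 4255 candidates with a mean of at least 50 CPM, were Mat2b, Uqcrc2, Zfand5, Rpl6 and Rgs10. Their root mean square distances were 0.024 to 0.037 on the log2 scale. Among the members themselves the distance to that mean was smallest for Atp6v1g1 (0.040) and Atp6v1h (0.045) and largest for Atp6v1d (0.16) and Atp6v1f (0.12). The mean profile was -0.12, -0.29 and -0.12 in WT and 0.059, 0.19 and 0.28 in KO. The GC trend was not taken off these profiles, and its part in their likeness was not tested. In the pathway columns of the deposited table all 8 shared the Reactome terms for iron uptake and transport (53 genes), insulin receptor recycling (30 genes) and the control of mTORC1 by amino acids (53 genes), and the KEGG term for oxidative phosphorylation (133 genes).

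Markers of other cell states moved with genotype beside the V1 members. The summed level of 11 osteoclast markers was 5252 to 5678 CPM in WT and 7003 to 7419 CPM in KO. At an unadjusted p under 0.05, 6 of 11 were higher and none lower, and 7 and none after GC correction. Among the 6 were Dcstamp (log2 fold change 0.84, and 0.76 after GC correction) and Ctsk (0.77 and 0.73). Of all tested genes, 13.0% were higher and 13.2% lower at that p, and 12.3% and 14.3% after GC correction. Of 8 macrophage markers 4 were lower at that p, both without and with GC correction. The 8 summed to 16881 to 17977 CPM in WT and 15213 to 17903 CPM in KO. The 10 neutrophil markers summed to 1256 to 1416 CPM in WT and 1681 to 2024 CPM in KO. Of the 9 tested, 6 were higher and 1 lower at that p, and 7 were higher and none lower after GC correction. Summed markers of B cells (3.01 to 3.56 CPM in WT, 3.82 to 4.26 in KO), T cells (at most 0.288 CPM), erythroid cells (at most 0.682 CPM) and stromal cells (13.6 to 18.9 CPM in WT, 9.27 to 15.7 in KO) were low. The part of these markers in the V1 difference was not tested. In bulk RNA, more cells of one type and more RNA per cell cannot be told apart.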

How the data were processed

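Poly(A) RNA of 3 WT and 3 KO BMDM cultures was sequenced after RANKL, with stranded libraries. The authors deposited 1 table of estimated counts per gene. The submitters' processing notes name fastp, HISAT2, StringTie, RSEM and the build GRCm39, and versions were not given in the sources used here. The authors' mean columns were not used. Estimated counts were rounded, genes were filtered with filterByExpr (13428 of 57180 kept), scaled by TMM and tested with edgeR 4.0.16 (quasi-likelihood, Benjamini-Hochberg adjustment) in R 4.3.3. CPM is counts per 1000000 after TMM scaling. Limits were adjusted p under 0.01 and fold change above 1.3. DESeq2 1.42.0 and limma-voom (limma 3.58.1) were alternatives. The fits were tested on simulated data. GC content and transcript length came from the longest coding GENCODE M21 transcript (GRCm38, not the build of the counts), and 98.1% of tested genes had a GC value. For the GC correction, each library's deviation from the mean was fitted against GC content with a natural spline (5 degrees of freedom) and used as an offset. The members, lists and tests were chosen with earlier results of these data known. Named were all members, their paralogs, Ttc39aos1, list genes with an unadjusted p under 0.05 or at the ends of a list, and the 5 nearest profiles, except for 1 list gene that is not reported here. Genes beyond these (Lyz2, Ctsk, Dcstamp, Atp6v0b, Ccdc115, Clcn7, Tcirg1, Atp6v0d1, Atp6v0a4, Eif2s1, the overlapping genes and the assembly genes lower after GC correction) were named after their values were seen. Depth was 17757351 to 19998611 counts per library. Intervals and floors cover counting error only.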

Additional observations from a re-analysis of the deposited data

How the results depend on the processing

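Over 17 alternative settings of scaling, filter, test, replicate block, GC correction and left-out libraries, all 136 member fold changes were above 0. The settings share the same libraries. Without GC correction the sign could hardly change, because no member overlapped between the genotypes. The number of V1 members past both limits was 0 except for 1, Atp6v1d, with DESeq2 and 1 with DESeq2 and the GC correction. The cause was not tested. With limits loosened after seeing the data to an adjusted p under 0.05, the number was 1 with the GC correction (0.484% of all genes were called higher), 2 with DESeq2 (3.30%) and 1 with both (3.25%), and with edgeR uncorrected, where this limit was planned, 0 (0 of all genes). Leaving out 1 library at a time gave 0 to 0 members past both limits, 4 (without WT replicate 2) to 7 (without KO replicate 3) at an unadjusted p under 0.05, and a median log2 fold change of 0.27 to 0.43. The same with the GC correction, also added after seeing the data, gave 0 to 1 (1 without KO replicate 1), 7 to 7 and 0.22 to 0.33. Shares of all tested genes are not given for the fits without 1 library, so these counts are not set against a background. The deviations of same-numbered WT and KO libraries had correlations of -0.22, 0.077 and 0.17, so the numbers were not taken to pair the samples, and not every library correlated best with its own number. With the number as a replicate block, 5 of 8 members were higher at an unadjusted p under 0.05, against 12.6% of all genes (7 with the GC correction too), 0 passed both limits, and the median was 0.34 (0.30 with the GC correction). Without division by length the share of Atp6v1g1 differed by 0.212 percentage points between genotypes in place of 0.158. By member, an unadjusted p under 0.05 was lost for Atp6v1b2 without WT replicate 1, without WT replicate 3 and with the block, for Atp6v1e1 without WT replicate 2 or KO replicate 2, and for Atp6v1c1 without WT replicate 2. It was gained for Atp6v1a with DESeq2 and for Atp6v1f without KO replicate 3 and in the 3 fits with GC correction. The lowest count of any member in any library was 2014, so counting error is small beside the level of each member.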
